A study of Saccharomyces cerevisiae with 6 samples.

Results

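Label left at chase time 18 was the share of the first 4-thiouracil (4TU) label that a transcript still carried near that time, compared between cells without UPF3 and wild-type cells of Saccharomyces cerevisiae. In each of the 6 cultures, 3 libraries were used: unlabelled RNA taken with DMSO, labelled RNA at time 0 of the chase and labelled RNA between times 17 and 19. These were 18 of the 42 libraries in the series. Of 5560 genes in the tables, 4506 had 100 or more reads in each of the 18 libraries, and 4462 of these also had a conversion rate above the unlabelled rate in all 12 labelled libraries and were tested. The 44 genes lost at the last step had no rate above background near 18, in wild type for 37 of them and in the deletion for 7. The times carry no unit in the tables and are read as minutes.

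All cultures were of the laboratory strain BY4741, either wild type (3 cultures) or with UPF3 deleted (upf3Δ, 3 cultures), and the submitters call them biological triplicates, so p-values measure the spread between cultures. The labelled cultures of both genotypes received 4TU and were then chased. The labels name no difference between the groups other than UPF3, and the sources used here do not give whether the deletion came from 1 clone. Reads came from the 3′ ends of polyadenylated transcripts.

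Nonsense-mediated mRNA decay (NMD) removes transcripts whose translation ends early, such as those with an upstream reading frame, a frameshift or a premature stop codon. Upf1, Upf2 and Upf3 are its core factors in yeast, and without any of them such transcripts last longer. In SLAM-seq, new RNA incorporates a thiol-labelled uridine that is read after alkylation as a T>C conversion, and the loss of conversions during a chase with unlabelled uracil follows the loss of the labelled molecules. The measure is a share within each gene, so unlabelled RNA made during the chase also lowers it.

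The libraries held 11528364 to 17032584 reads, and 2.53% to 2.77% of covered T bases were converted at time 0, against 1.17% to 1.38% near 18 and 0.0249% to 0.0357% without label. Chase times of the late library were 17.97, 18.07 and 17.87 in wild-type replicates 1 to 3 and 17.88, 17.43 and 17.92 in deletion replicates 1 to 3. Deletion replicate 1 stood apart: across the 4462 genes, its log2 read levels at time 0 correlated with those of the other deletion cultures at 0.765 and 0.822, against 0.976 between deletion replicates 2 and 3. Wild-type replicate 1 also stood apart, at 0.929 and 0.931 with the other wild-type cultures, which correlated with each other at 0.996. In label left, wild-type replicate 1 correlated with the others at 0.519 and 0.568, against 0.775 between wild-type replicates 2 and 3, and deletion replicate 1 at 0.531 and 0.620, against 0.712 between deletion replicates 2 and 3. Reads per gene in that culture changed between 0 and 18 with an SD of 0.813 on the log2 scale, against 0.397 to 0.490 in the other 5 cultures. Deletion replicates 1 and 2 shared all 7 library barcodes with each other, as did wild-type replicate 1 and deletion replicate 3. Values without a culture are therefore given below. Defining genes of a cells (7 of 7 found), the mating type of BY4741, summed to 4518 to 4755 CPM in wild type and 2808 to 3344 in the deletion. Genes of alpha cells (4 of 6 found) summed to 18.8 to 25.4 and 47.1 to 70.6 CPM, and genes of diploid or sporulating cells (7 of 7 found) to 36.3 to 43.4 and 48.0 to 51.9 CPM. Their part in the results below was not tested.

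Reads of UPF3 (YGR072W), summed over the libraries at 0 and 18, came to 24.5, 30.9 and 30.2 normalised CPM in the wild-type cultures, in replicate order, and to 6.21, 6.15 and 7.43 in those with the deletion. Every deletion culture lay below every wild-type culture. The log2 difference in reads was −2.11 (SE 0.21, adjusted p = 0.00544 by edgeR's quasi-likelihood test), and without wild-type replicate 2 or 3 it was −2.05 and −2.07 (edgeR, adjusted p = 0.0530 and 0.0544). UPF3 had under 100 reads in a library and so no value of label left. Whether the remaining reads fall on a part outside the deletion was not tested.

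Median label left was higher in every deletion culture than in any wild-type culture, but 3 cultures a group cannot take the test below 0.1. It was 25.6%, 23.2% and 24.2% in wild-type replicates 1 to 3 and 31.2%, 28.0% and 27.0% in the cultures without UPF3, in the same order. Group means came to 24.3% ± 1.20 and 28.7% ± 2.19 (SD, n = 3), a difference of 4.41 percentage points, with p = 0.1 by an exact permutation test (two-sided), the smallest p that 3 against 3 can give. On the log2 scale the culture medians differed by 0.24, and by 0.18 without deletion replicate 1. Read as a single exponential, the medians correspond to half-lives of 8.81 ± 0.290 and 9.87 ± 0.661 minutes. Gene by gene, the log2 difference was above 0 in 74.3% of the 4462 genes, with a median of 0.16 and a middle 50% from −0.0052 to 0.42.

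**Figure D1:**
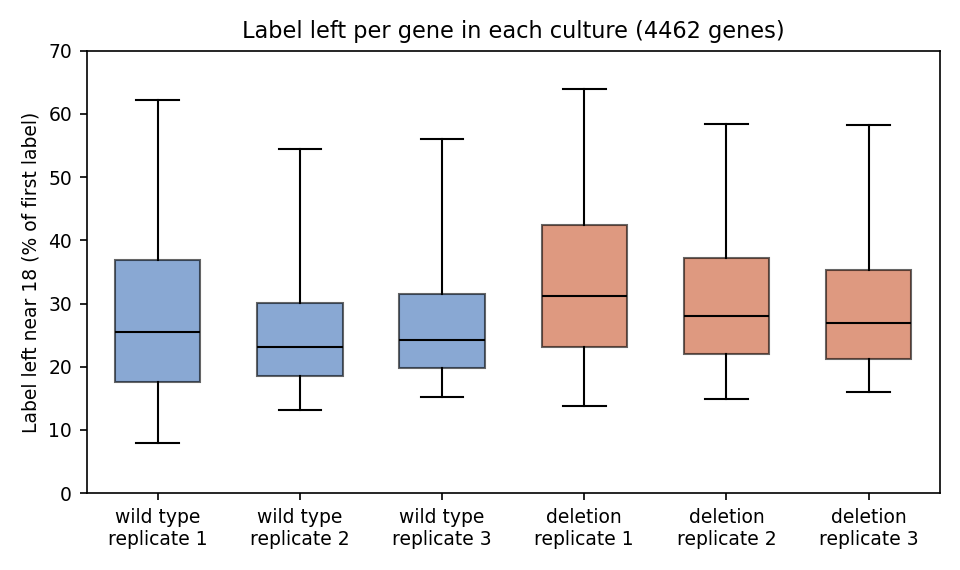
Label left near chase time 18 (y axis, % of the label at time 0) over 4462 genes in each of the 6 cultures (x axis). The line is the median, the box the middle 50% and the whiskers reach from the 5th to the 95th percentile of genes; the wild-type medians lie between 23.2% and 25.6%, the deletion medians between 27.0% and 31.2%.

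The comparison gene by gene asked which transcripts kept more or less label near 18 without UPF3. limma called 18 of the 4462 genes (0.403%) with more label left in the deletion and 0 (0%) with less, at a Benjamini-Hochberg adjusted p of 0.05. At an unadjusted p under 0.05, limma gave 579 genes with more (13%) and 23 with less (0.515%). All 3 deletion cultures lay above all 3 wild-type cultures in 828 genes (18.6%) and below them in 59 (1.32%). The calls depended on how limma shared variance between genes. The fit was robust and let the prior variance follow the number of converted T bases near 18. With neither the trend nor the robust option, or with a trend on mean label left instead, 0 genes passed in either direction (465 and 476 with more, 23 and 25 with less, at an unadjusted p under 0.05). Without deletion replicate 1, 3 genes passed with more label, without deletion replicate 2 only HTL1, and without deletion replicate 3 HTL1 and NUT2. Without wild-type replicate 1, 47 passed, without wild-type replicate 2, 10, and without wild-type replicate 3, 23. Without replicate 1 of both genotypes, 202 genes passed with more label and 4 with less. By the share of reads with T>C 8 passed with more, and with labelled RNA taken per library, so that unlabelled RNA of the same gene does not enter, 0. All 18 kept a positive difference with each culture left out.

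**Figure D2:**
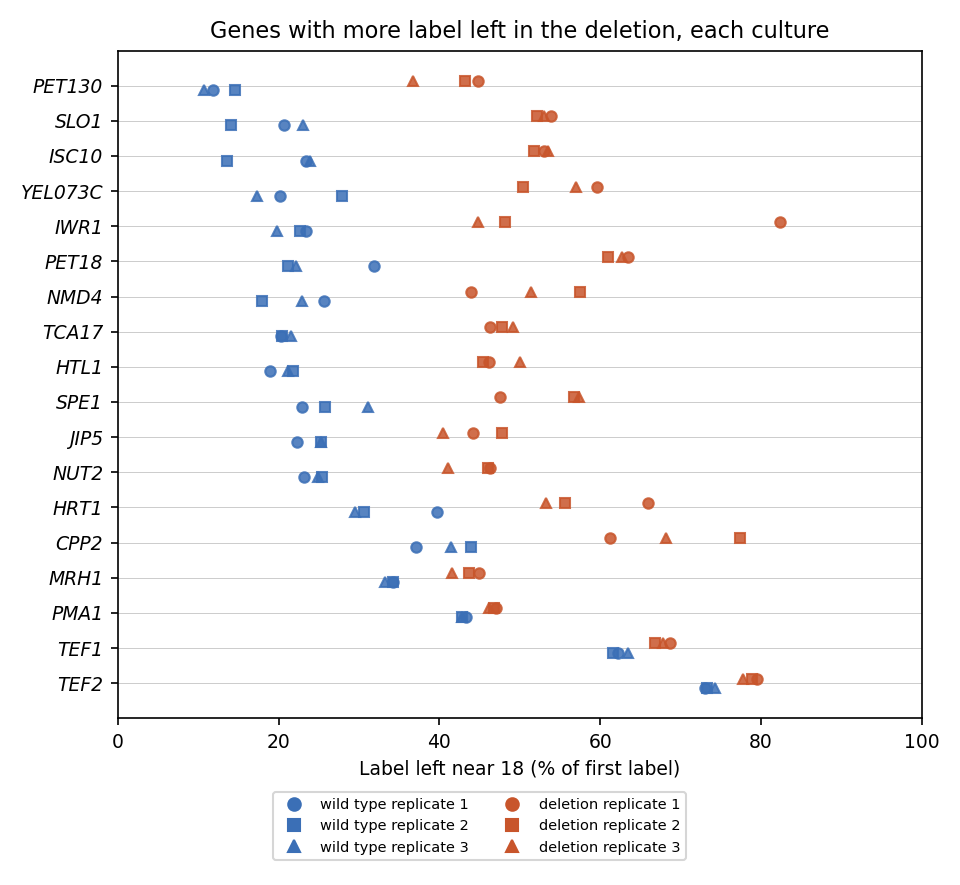
Label left near 18 (x axis, % of the label at time 0) in each culture for the 18 genes that limma called with more label left in the deletion, ordered by log2 difference. Blue points are wild type, orange the deletion, and shapes give the replicate; in each gene the 3 orange points lie to the right of the 3 blue ones, while the differences of TEF1, TEF2 and PMA1 turn negative when each culture is centred on its median.

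HTL1 (YCR020W-B, chromosome III, 155320 to 155556, build R64), a small subunit of the RSC chromatin remodelling complex, had the lowest p. Its label left was 18.9%, 21.9% and 21.2% in wild-type replicates 1 to 3 and 46.2%, 45.5% and 50.1% in deletion replicates 1 to 3. The groups were far apart compared with their spread, with means of 20.7% ± 1.56 and 47.2% ± 2.49 (SD, n = 3). The log2 difference was 1.19 (SE 0.14, limma adjusted p = 0.00215), resting on 155 to 203 converted T bases near 18 in wild type and 1041 to 1523 in the deletion. Each culture left out in turn kept the call. Over all settings tried, HTL1 passed in 19 of 22, with limma adjusted p values from 4.54e-11 to 0.503. With labelled RNA taken per library its log2 difference was 0.70 (limma, adjusted p = 0.503). HTL1 read levels in CPM differed between 0 and 18 by 0.41 ± 0.110 on the log2 scale in wild type and by −0.083 ± 0.229 without UPF3 (SD, n = 3). Across genes, such changes had an SD of 0.410 to 0.490 in the wild-type cultures. CPM is a share of reads, so whether HTL1 RNA per cell changed over the chase was not tested. Reads of HTL1 at 0 and 18 were also higher in the deletion, by 1.97 on the log2 scale (edgeR, adjusted p = 0.0425), at normalised levels of 107, 68.6 and 73.1 CPM in the 3 wild-type cultures and 499.6, 209 and 270 in the deletion. Of 26 RSC and SWI/SNF genes, HTL1 included, 25 were tested and only HTL1 passed. Of all genes 0.403% passed with more label, so the lack of a call in the others is near the background share. The median log2 difference over the 25, with HTL1, was 0.19, against 0.16 over all genes. SNF6 and SNF11, of SWI/SNF, came next by p at 0.61 and 0.77 (limma, adjusted p = 0.368 and 0.380). SNF6 was at 0.36 without wild-type replicate 2 and SNF11 at 0.24 without wild-type replicate 1, which kept 6.97% of its SNF11 label against 22.6% and 19.3% in the other wild-type cultures.

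NMD4 (YLR363C, XII, 852495 to 853151), a partner of the helicase Upf1, was the only 1 of 4 tested NMD factors that passed. Of all genes, 0.403% passed with more label. NMD4 kept 25.7%, 18% and 22.9% of its label in wild-type replicates 1 to 3 and 43.9%, 57.5% and 51.4% in deletion replicates 1 to 3. No culture of either genotype overlapped the other group. The log2 difference was 1.21 (SE 0.21, limma adjusted p = 0.0139), and without deletion replicate 1 it was 1.31 (limma, adjusted p = 0.0871). NMD4 passed in 10 of its 21 other settings, with limma adjusted p values from 5.60e-10 to 0.634. Its reads were higher too, by 1.65 on the log2 scale (edgeR, adjusted p = 0.0251). Between time 0 and 18, NMD4 read levels in CPM differed by 0.71 ± 0.0376 on the log2 scale in wild type and by −0.17 ± 0.171 without UPF3 (SD, n = 3), and with labelled RNA taken per library the log2 difference of NMD4 was 0.33 (limma, adjusted p = 0.634). NMD2 (which encodes Upf2; named after its values were seen), NAM7 (which encodes Upf1) and EBS1, a further factor of the pathway, had log2 differences in label left of 0.63, 0.38 and 0.92 (limma, adjusted p = 0.562, 0.458 and 0.342), and EBS1 had 0.48 without wild-type replicate 1.

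TCA17 (YEL048C, V, 64709 to 65167), a subunit of the TRAPP II vesicle tethering complex, kept 20.3%, 20.5% and 21.6% in wild type and 46.3%, 47.7% and 49.2% in the deletion, in replicate order. Both groups were tight, and the log2 difference was 1.20 (SE 0.18, limma adjusted p = 0.00937). SLO1 (YER180C-A, V, 550865 to 551122), a partner of the Arf-like GTPase Arl3, kept 20.7%, 14.1% and 23.1% against 53.9%, 52.1% and 53.0%. Its log2 difference was 1.49 (SE 0.22, limma adjusted p = 0.00880). The deletion cultures of SLO1 agreed to within 2 percentage points, while wild-type replicate 2 was the lowest of the 6.

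ISC10 (YER180C, V, 549724 to 550527), a sporulation gene, lies just downstream of SLO1 on the same strand, with the 3′ ends of the genes 1141 bases apart. The deposited counting window of SLO1 is 1480 bases long and reaches the end of ISC10. Label left of ISC10 was 23.5%, 13.6% and 23.9% in wild type and 53.1%, 51.7% and 53.5% in the deletion, close to SLO1 in every culture. The log2 difference was 1.42 (SE 0.24, limma adjusted p = 0.0139). Converted T bases near 18 were 44, 32 and 72 in wild type and 733, 806 and 856 in the deletion for SLO1. For ISC10 they were 44, 29 and 70 against 679, 784 and 826. The windows overlap, so the values of SLO1 and ISC10 are not separate measurements. With counts this close, the values given for SLO1 cannot be assigned to SLO1 itself. Whether the reads of the pair come from 1 transcript was not tested. NUT2 (YPR168W, XVI, 878076 to 878549), a subunit of the Mediator complex, and JIP5 (YPR169W, XVI, 878690 to 880168), which acts in the making of the large ribosomal subunit, are a pair of the same kind, with a NUT2 window of 2048 bases and 3′ ends 1619 bases apart. NUT2 kept 23.2%, 25.4% and 24.9% in wild type and 46.3%, 46.0% and 41.1% in the deletion, a log2 difference of 0.86 (SE 0.12, limma adjusted p = 0.00823). JIP5 had means of 24.3% ± 1.72 and 44.2% ± 3.70 (SD, n = 3) and also 0.86 (SE 0.13, limma adjusted p = 0.00880). SLO1 and ISC10 averaged 1528 and 1459.5 reads per library, and NUT2 and JIP5 4230 and 3791, so NUT2 and JIP5 are not separate measurements either. Counting each pair once leaves 16 called transcripts. Such a reach of one window to the end of the next gene was found in 66 of 3615 neighbouring pairs of tested genes on 1 strand, where the median window is 612 bases long.

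PET130 (YJL023C, X, 397355 to 398398), a gene needed for respiratory growth, had the largest difference among the called genes. It kept 11.9%, 14.6% and 10.7% in wild type and 44.8%, 43.3% and 36.7% in the deletion. This was a ratio of 3.36, or a log2 difference of 1.75 (SE 0.30, limma adjusted p = 0.0139), but it rested on 20 to 36 converted T bases near 18 in wild type against 197 to 280 in the deletion. SPE1 (YKL184W, XI, 96757 to 98157), the ornithine decarboxylase that opens polyamine synthesis, kept 23.0%, 25.8% and 31.1% against 47.6%, 56.7% and 57.4%. Its log2 difference was 1.02 (SE 0.15, limma adjusted p = 0.00880). Reads of SPE1 differed by 0.31 on the log2 scale and did not pass (edgeR, adjusted p = 0.529), so more label left was measured there with a read level of 100.4 ± 2.49 CPM in wild type against 125 ± 11.8 CPM (SD, n = 3).

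IWR1 (YDL115C, IV, 253995 to 255126), which brings RNA polymerase II into the nucleus, kept 23.4%, 22.6% and 19.9% in wild type. In deletion replicates 1 to 3 it kept 82.4%, 48.2% and 44.8%, so replicate 1 lay far above the other deletion cultures. The log2 difference was 1.36 (SE 0.26, limma adjusted p = 0.0319) and 1.09 without deletion replicate 1 (limma, adjusted p = 0.232).

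PET18 (YCR020C, III, 154012 to 154659), a gene of unknown function, kept 31.8%, 21.2% and 22.2% in wild type and 63.5%, 61.0% and 62.7% in the deletion, a log2 difference of 1.34 (SE 0.23, limma adjusted p = 0.0139). With labelled RNA taken per library it was 0.84 (limma, adjusted p = 0.503), and PET18 read levels differed between 0 and 18 by 0.64 ± 0.133 on the log2 scale in wild type and by 0.13 ± 0.0943 without UPF3 (SD, n = 3). PET18 and HTL1 are the neighbours of MAK31 on either side, 170 and 223 bases away. MAK31, named after its values were seen, kept 68.9%, 53.3% and 55.3% in wild type and 59.0%, 57.7% and 64% in the deletion. The groups overlapped there, and the log2 difference was 0.034 (limma, adjusted p = 0.932). YEL073C (V, 7230 to 7553), an uncharacterised gene near a chromosome end, kept 20.1%, 27.9% and 17.3% against 59.6%, 50.4% and 57.0%, a log2 difference of 1.38 (SE 0.22, limma adjusted p = 0.00970). In YEL073C, 4.78% of reads mapped to more than 1 place, so its value is uncertain.

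The other 6 called genes are named after their values were seen. HRT1 (YOL133W, XV, 70325 to 70690), the RING subunit of SCF ubiquitin ligases, kept 33.3% ± 5.63 in wild type against 58.3% ± 6.73 (SD, n = 3; log2 difference 0.81, SE 0.16, limma adjusted p = 0.0430). CPP2 (YDR210W, IV, 871074 to 871301) kept 40.8% ± 3.47 and 68.9% ± 8.14 (SD, n = 3; log2 difference 0.75, SE 0.12, limma adjusted p = 0.00937). It overlaps the reading frame YDR209C on the other strand, and reads of the pair cannot be told apart if counting ignored strand, which no source used here states. MRH1 (YDR033W, IV, 508147 to 509109), a plasma membrane protein, kept 33.9% ± 0.598 and 43.4% ± 1.67 (SD, n = 3; log2 difference 0.36, SE 0.060, limma adjusted p = 0.0139).

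The smallest called differences belonged to 3 of the most abundant transcripts. TEF1 (YPR080W, XVI, 700594 to 701970) and TEF2 (YBR118W, II, 477671 to 479047), which both encode the elongation factor EF-1 alpha, and PMA1 (YGL008C, VII, 479910 to 482666), the proton pump of the plasma membrane, had log2 differences of 0.12, 0.097 and 0.12, which became −0.12, −0.14 and −0.12 when each culture was centred on its median. Label left of TEF1 was 62.3%, 61.6% and 63.5% in wild type and 68.7%, 66.9% and 67.8% in the deletion (limma, adjusted p = 0.0139). On the log2 scale, the differences of TEF1, TEF2 and PMA1 were smaller than the shift of the culture medians. With loss taken as a single exponential, mean half-life from wild type to deletion rose from 26.5 to 31.7 minutes for TEF1. For TEF2 it rose from 40.6 to 51.4, for PMA1 from 14.8 to 16.1 and for the culture medians from 8.81 to 9.87. A smaller log2 difference thus does not by itself show a smaller change in half-life. In deletion replicate 1, PMA1 reads went from 954 to 3593 CPM between 0 and 18, while in deletion replicates 2 and 3 they went from 11125 to 8313 and from 9442 to 9253 CPM.

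Centring each culture on its median moved all genes by 0.24 on the log2 scale and left a median of −0.075 with 40.7% of genes above 0. After centring, limma called HTL1 and SLO1 (whose window reaches the end of ISC10) with more label left, at 0.96 and 1.25, and 3 genes with less. The genes with less were RPL28, ADH4 and HSP12, a small heat shock gene, at −0.34, −0.74 and −0.49. Of the 18 genes called without centring, 15 kept a positive difference. Whether the shift of the medians is a slower loss of label in most transcripts or a difference between cultures cannot be told apart with 3 cultures each.

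**Figure D3:**
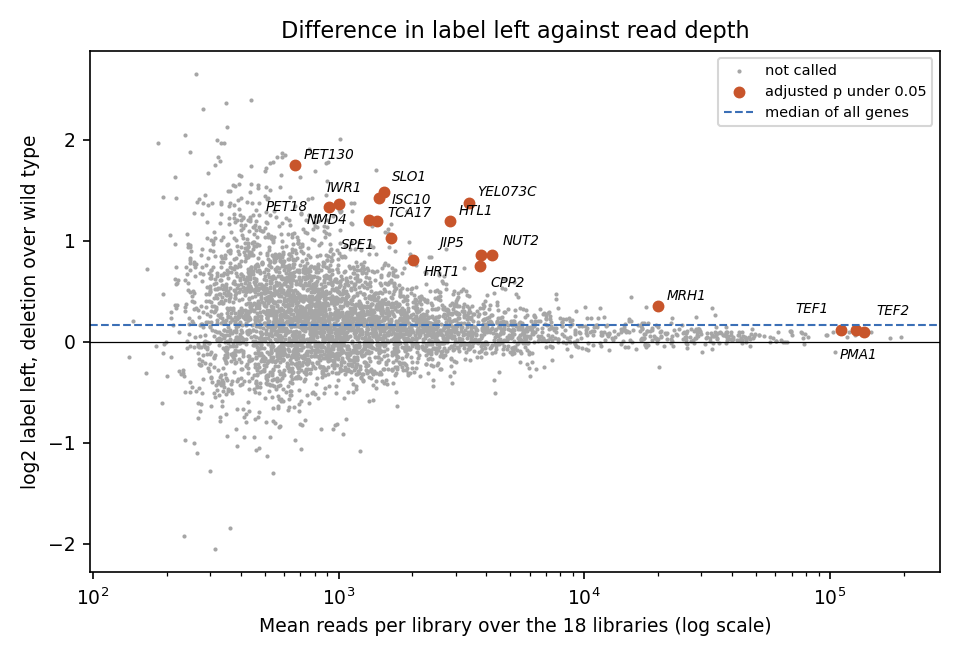
Log2 difference in label left near 18, deletion over wild type (y axis), against the mean number of reads per library over the 18 libraries (x axis, log scale) for 4462 genes. Orange points are the 18 called genes and the dashed line is the median of all genes, 0.16; the spread narrows with depth, and TEF1, TEF2 and PMA1 lie below the dashed line and turn negative when cultures are centred.

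How small a difference could be called depended on depth. Among the 1116 genes of lowest depth (140 to 567 reads per library on average), the median residual SD between cultures was 0.509 on the log2 scale, the median counting error of 1 culture was 0.261 and 0 genes passed. Among the 1116 of highest depth (1972 reads and more), the same values were 0.136 and 0.0656, and 10 genes passed. With the genes in 4 depth groups, the median log2 difference was 0.29, 0.24, 0.17 and 0.098 from the lowest to the highest. In simulated data with known changes, the limma fit recovered 22% of differences of log2 size 0.5 and 59% of size 1 over 4461 genes, with 1 false call. Many differences of this size would thus not have been called at this depth. The simulated noise between cultures followed the variances of this same fit, equal in every culture. It held no shift of the medians and no replicate 1 standing apart, so it does not give the share of false calls in these data. Counting errors cover only the sampling of T bases, and copies of 1 molecule made by PCR are not told apart in them.

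The same cultures at the other chase points gave the course behind the values at 18. HTL1 kept 39.7% ± 2.11 near time 8 in wild type against 76.8% ± 2.58 without UPF3 (SD, n = 3), and 1.49% ± 0.994 and 3.50% ± 1.18 near time 58. SLO1, whose window reaches the end of ISC10, kept 37.1% ± 4.32 and 80.9% ± 6.74 near 8, and TCA17 32.1% ± 7.02 and 75.8% ± 4.68 (SD, n = 3). In these 3 genes the groups were already apart near 8 and were both close to 0 near 58. NMD4 kept 49.4% ± 19.6 and 77.3% ± 4.94 near 8 (SD, n = 3), where one wild-type culture reached 72.0%, close to the lowest deletion culture at 73.0%. All points share the library at time 0 and the unlabelled library with the value at 18, so they are no independent support and were not tested.

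**Figure D4:**
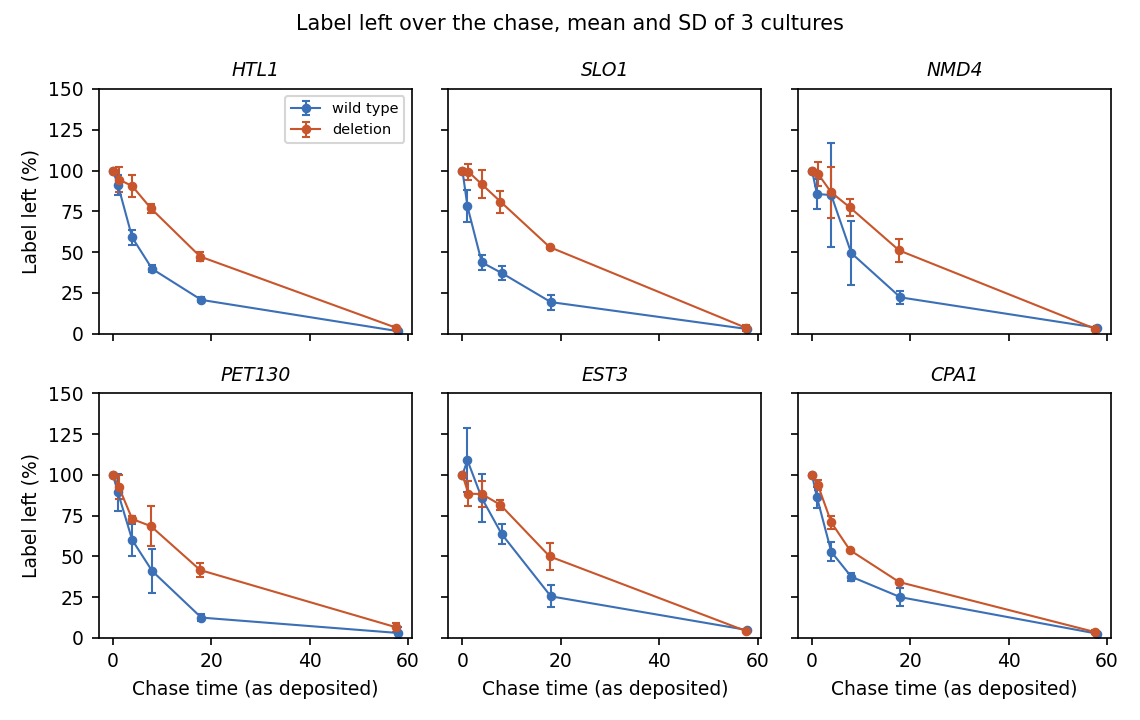
Label left (y axis, % of the label at time 0) against chase time as deposited (x axis) for HTL1, SLO1, NMD4, PET130, EST3 and CPA1, as the mean of 3 cultures with the SD as bars, wild type in blue and the deletion in orange. In HTL1 and SLO1 (whose window reaches the end of ISC10) the curves are apart from time 4 on, and near 58 both genotypes are close to 0.

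Of 17 long-known NMD substrates found in the tables, 12 were tested. By limma 0 of them passed, where 0.403% of all genes passed with more label, so a list of this size would hold no call at the background share. Their median log2 difference was 0.77, against 0.16 over all 4462 genes. In 7 of the 12 (58.3%) the cultures did not overlap, with the deletion above, against 18.6% of all genes, and 6 had more label at an unadjusted p under 0.05, against 13% of all genes. The list was chosen with earlier results of these data known, so these shares are no independent support. EST1, a telomerase subunit, EST2, PGA1, SPT10 and PPR1, the activator of pyrimidine genes, had under 100 reads in a library. FLO8 was not analysed here.

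COX19 (YLL018C-A, XII, 108676 to 108972), which acts in copper delivery to cytochrome oxidase, had the lowest p of the list. It kept 18.6%, 19.8% and 24.2% in wild type and 41.5%, 37.7% and 40.2% in the deletion. The groups lay well apart, at a log2 difference of 0.94 (SE 0.21, limma adjusted p = 0.0652). EST3 (YIL009C-A, IX, 335666 to 336212) encodes a part of telomerase through a ribosomal frameshift. It kept 22.3%, 20.7% and 33.3% against 59.1%, 42.9% and 47.8%, a log2 difference of 0.99 (SE 0.23, limma adjusted p = 0.0765). Over the 21 other settings the limma adjusted p of EST3 ranged from 0.0133 to 0.503.

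DAL7 (YIR031C, IX, 413015 to 414679), the malate synthase of allantoin breakdown, kept 6.92%, 19.9% and 27.1% in wild type and 51.9%, 54.5% and 44.5% in the deletion. The wild-type spread was wide, with 4 converted T bases near 18 in replicate 1, and the log2 difference was 1.69 (SE 0.45, limma adjusted p = 0.126), or 1.11 without that culture. DAL7 reads were higher by 3.08 on the log2 scale (edgeR, adjusted p = 0.00455). CPA1 (YOR303W, XV, 882899 to 884134), which carries an upstream reading frame that responds to arginine, kept 30.9%, 20.6% and 23.3% against 33.9%, 33.9% and 34.8%. Wild-type replicate 1 lay close to the deletion cultures, and the log2 difference was 0.48 (SE 0.14, limma adjusted p = 0.155). Its read levels in CPM differed between 0 and 18 by 0.80 to 1.24 on the log2 scale in wild type and by 1.44 to 1.62 in the deletion. The share of reads from CPA1 thus changed in every culture, and whether its RNA per cell did was not tested.

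TEN1 (YLR010C, XII, 167320 to 167802), which caps telomeres, kept 18.4%, 15.0% and 15.7% in wild type and 52.8%, 28.4% and 39.5% in the deletion. The deletion cultures differed widely from each other, and the log2 difference was 1.26 (SE 0.40, limma adjusted p = 0.205). ALR1, a magnesium transporter, had 0.38 (limma, adjusted p = 0.610) and CTR2, a copper transporter of the vacuole, −0.031 (limma, adjusted p = 0.977), with overlapping cultures in both. FRE6, a ferric reductase of the vacuole, and MAC1, the copper-sensing activator, both named after their values were seen, had 1.00 and 0.94 (limma, adjusted p = 0.239 and 0.390).

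The 3 listed genes with a programmed frameshift, EST3, OAZ1 (ornithine decarboxylase antizyme) and ABP140 (an actin-binding protein), had a median of 0.47 and 0 calls. Only 0.403% of all genes passed with more label, so lists this small would hold no call at that share. In the telomere list 5 of 10 were tested, with 0 calls and a median of 0.64. The 6 tested genes of allantoin breakdown, the 14 with regulated splicing and the 3 of the COS family had medians of 0.15, 0.17 and 0.21, with 0 calls. The 23 tested genes with upstream reading frames had 0 calls and a median of 0.16, the value of all genes. Of 7 tested double-strand break repair genes 0 passed and 4 had a log2 difference above 0, with a median of 0.43 and a range from −0.26 to 2.05. All deletion cultures lay above all wild-type cultures in 3 of them (42.9%, against 18.6% of all genes). XRS2, of the Mre11 complex, and NEJ1, of end joining, were among these 3, at 2.05 and 1.26 (limma, adjusted p = 0.134 for both). XRS2 kept 18.3%, 6.31% and 22.3% in wild type and 80.1%, 39.9% and 57.5% in the deletion. Its values rested on 16, 9 and 22 converted T bases near 18 in wild type and 88, 65 and 69 in the deletion. Of 28 meiosis and sporulation genes 3 were tested and ISC10 was called, against 0.403% of all genes, while ZIP1, of the synaptonemal complex, had 1.56 (limma, adjusted p = 0.233), 0.87 without wild-type replicate 1, and NDT80, the activator of middle sporulation genes, −0.043 (limma, adjusted p = 0.980).

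Of 25 tested genes of the decay machinery 0 passed (limma), near the 0.403% of all genes, with a median of 0.20. EDC3, a decapping enhancer, RRP6, of the nuclear exosome, and CDC39, the scaffold of the Ccr4-Not complex, came first by p at 0.88, 0.48 and 0.41 (limma, adjusted p = 0.332, 0.332 and 0.384). EDC3 kept 63.2% in deletion replicate 1 and 25.6% and 21.6% in the other deletion cultures, its log2 difference was 0.40 without that culture, and 5.38% of its reads mapped to more than 1 place.

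Centring lowered every list by the same 0.24, so each list median under that value turned negative, whatever the list. Cytosolic ribosomal proteins had a median of 0.056 over 137 genes and −0.18 when centred, with 0 calls. Glycolysis and fermentation genes had a median of 0.096 over 18 genes and −0.14 when centred, 0 calls, and cultures that did not overlap in 10 (55.6%, against 18.6% of all genes), where FBA1, PDC1 and ENO2, 3 glycolytic enzymes, had 0.11, 0.11 and 0.092 before centring and −0.13, −0.13 and −0.15 after it (limma, adjusted p = 0.0806, 0.118 and 0.148 before centring). FBA1 kept 70.7%, 72.8% and 71.9% in wild type and 76.4%, 79.6% and 75.8% in the deletion. Read as a single exponential, mean half-lives of FBA1, PDC1 and ENO2 were 37.6, 38.7 and 45.6 minutes in wild type. In the deletion they were 47.9, 49.5 and 59.0 minutes. Centring takes the same log2 amount at every level of label left, so a negative centred value does not by itself show faster loss. Stress response genes had the lowest median of the 28 lists with 3 or more tested members, 0.016 over 24 genes and −0.22 when centred.

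Other metabolic and structural lists had 0 calls each, where 0.403% of all genes passed with more label. Medians were 0.13 over 43 genes of respiration, 0.12 over 72 mitochondrial ribosomal proteins, 0.15 over 86 genes of ribosome biogenesis, 0.12 over 51 of amino acid synthesis, 0.17 over 11 of pyrimidine synthesis, 0.12 over 11 histone genes, 0.12 over 34 proteasome genes and 0.14 over 21 cell cycle genes. All 8 lie under 0.24 and so are negative when centred. Sulfur and methionine genes had 0.23 over 17 genes (−0.0058 centred), where MET1, of sirohaem synthesis, kept 23.8%, 20.3% and 19.6% against 49.9%, 39.8% and 47.6% (log2 difference 1.11, limma adjusted p = 0.0748). Medians above 0.24 were those of phosphate genes, 0.31 over 17 (0.069 centred), the iron regulon, 0.29 over 19 (0.047 centred), and autophagy genes, 0.28 over 23 (0.045 centred). The a-cell and pheromone genes had 0.20 over 14 (−0.036 centred). Among those, MFA2, an a-factor precursor, kept 18.5%, 18.5% and 19.2% in wild type and 23.6%, 22.7% and 21.1% in the deletion, a log2 difference of 0.26 (limma, adjusted p = 0.0552), 0.024 after centring.

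**Figure D5:**
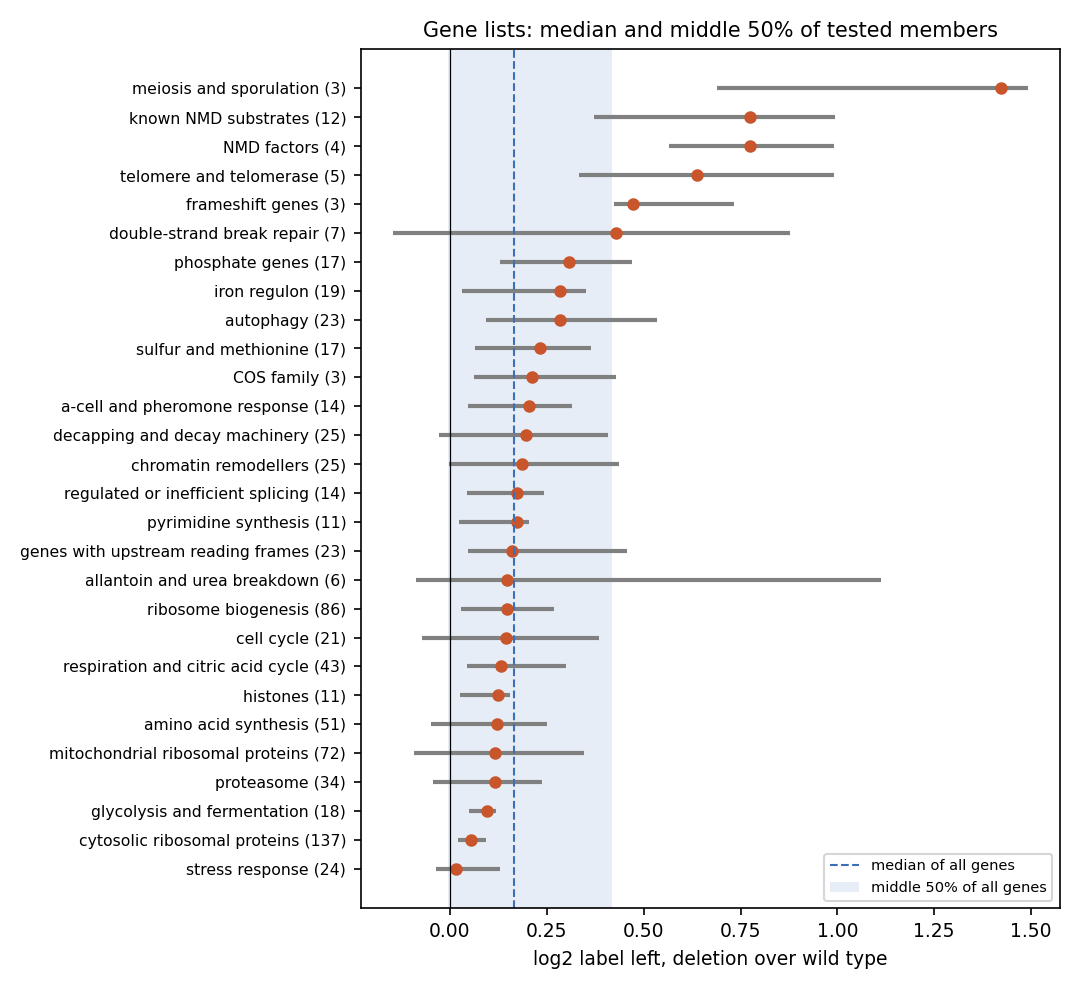
Log2 difference in label left, deletion over wild type (x axis), for 28 gene lists (y axis, with the number of tested members). Points are medians and bars the middle 50% of members; the dashed line is the median of all 4462 genes, 0.16, and the band their middle 50%. Known NMD substrates lie at 0.77 and cytosolic ribosomal proteins at 0.056, and centring each culture shifts all points down by 0.24, so that medians under that value become negative. Lists were chosen with earlier results of these data known.

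In the direction of less label in the deletion, 0 genes passed. The 12 with the lowest p among those whose cultures did not overlap are named here. RPL28 (YGL103W, VII, 310967 to 311927), a protein of the large ribosomal subunit, came first. It kept 66.6%, 64.5% and 66.1% in wild type and 62.3%, 61.2% and 60.3% in the deletion, a difference of −0.10 on the log2 scale (SE 0.024, limma adjusted p = 0.0909). Its cultures were tightly grouped, and RPL28 passed when only genes with 500 or more reads were tested and in 4 further settings, with limma adjusted p values from 0.00877 to 0.754 over all 22. MRPL6 (YHR147C, VIII, 392639 to 393283), a mitochondrial ribosomal protein, kept 30.8%, 29.7% and 26.9% against 9.52%, 15.7% and 11.0%, at −1.30 (SE 0.39, limma adjusted p = 0.183). ADH4 (YGL256W, VII, 15159 to 16307), an alcohol dehydrogenase, kept 97.0%, 70.9% and 71.9% against 67.6%, 56.0% and 45.6%, at −0.51 (SE 0.16, limma adjusted p = 0.208), and 0.082 when label was taken per library instead of per transcript.

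The remaining 9 had limma adjusted p values between 0.205 and 0.361. They were BLS1, of the BLOC-1 complex, at −2.05 on the log2 scale, COX10, of haem a synthesis, at −1.28, the septin CDC11 at −0.91, PAL1, of endocytosis, at −0.86, CUE3, a ubiquitin-binding protein, at −0.86, VPS63 at −0.77, the nucleoporin NIC96 at −0.50, the multicopper oxidase FET5 at −0.50 and OPI3, of phosphatidylcholine synthesis, at −0.25. VPS63 overlaps YPT6, so its reads may not be its own. BLS1 was among the genes of lowest depth, and its 3 deletion cultures kept 2.43%, 9.95% and 9.14%.

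Reads of the same libraries were a further readout that does not enter the ratio of label left. The number of reads does bear on its calls, through the read minimum and the converted T bases that set the prior variance. Summed over 0 and 18, edgeR called 203 of 5544 genes higher (3.66%) and 9 lower (0.162%) in the deletion. Leaving out 1 culture gave 2 higher without wild-type replicate 2 or 3, 92 without wild-type replicate 1, and 369, 79 and 43 without deletion replicates 1, 2 and 3. Genes lower were then 0, 0, 5, 17, 2 and 2, in the order wild-type replicates 2, 3 and 1 and deletion replicates 1 to 3. Same-numbered cultures deviated together in reads, with correlations of 0.887, 0.807 and 0.809 between their deviations from the group means. Within a group the deviations cancel out, so these correlations do not separate pairing from a shift of replicate 1 shared by both genotypes. With the replicate number as a block, 839 genes were higher and 304 lower. With a term for replicate 1 alone, chosen after seeing the data, 903 were higher and 363 lower. Without replicate 1 of both genotypes, 928 were higher and 130 lower, and DESeq2 gave 424 and 65. Both comparisons share all 6 cultures, so values are given side by side only. The largest read differences among the genes called for label left were 2.69 in ISC10, 2.63 in SLO1, 2.40 in YEL073C, 2.36 in PET18 and 2.20 in TCA17 on the log2 scale (edgeR, adjusted p = 0.00448, 0.00448, 0.0192, 0.0116 and 0.0138). IWR1, NUT2 and JIP5 also passed at 1.47, 0.96 and 0.95 (edgeR, adjusted p = 0.0123, 0.0416 and 0.0416). PET130 and HRT1 had 1.49 and 0.97 and did not pass (edgeR, adjusted p = 0.0606 and 0.0766), though both did with the block (edgeR, adjusted p = 0.000120 and 0.000456). CPP2 had 0.79 and MRH1 0.053 (edgeR, adjusted p = 0.248 and 1.00), and with the block CPP2 passed at 0.75 (edgeR, adjusted p = 0.00864). TEF1, TEF2 and PMA1 had −0.27, −0.28 and −0.50 (edgeR, adjusted p = 0.743, 0.892 and 0.903), and with the block PMA1 passed at −0.61 (edgeR, adjusted p = 0.0214). Of the NMD substrates not called for label left, CPA1, TEN1 and EST3 had read differences of 1.64, 1.88 and 1.39 (edgeR, adjusted p = 0.0529, 0.0566 and 0.199). With the block these were 1.69, 1.82 and 1.30, and all 3 passed (edgeR, adjusted p = 8.24e-05, 8.81e-05 and 0.000520). EST1, ALR1, CTR2 and PPR1 had 1.32, 0.91, 0.11 and −0.67 (edgeR, adjusted p = 0.0766, 0.238, 0.994 and 0.537). With the block EST1 and ALR1 passed (edgeR, adjusted p = 0.00322 and 0.00374), and CTR2 and PPR1 did not. Of 17 known NMD substrates tested in reads, 2 were called higher without the block, against 3.66% of all genes. In bulk cultures a higher share of reads does not separate more RNA per cell from less of all other RNA.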

How the data were processed

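Per the labels' protocols, alkylated total RNA was made into QuantSeq 3′ libraries, with R64 as genome build, per the submitters' processing notes. Per the file headers, the deposited values are counts per gene window and library (reads, reads with T>C, covered and converted T bases), a conversion rate as a fraction of converted over covered T bases, and a chase time. Aligner, caller, filters, use of strand: not given in the sources used here.

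Label left was the rate near 18 over the rate at 0, each minus the DMSO rate of the same gene and culture. Log2 label left was fitted with limma 3.58.1 (eBayes, robust, prior variance trend on mean log2 of converted T bases near 18 plus 0.5), uncentred and without covariates, with Benjamini-Hochberg adjustment over 4462 genes. For reads, each culture's libraries at 0 and 18 were added and fitted by edgeR 4.0.16 (TMM, filterByExpr, quasi-likelihood), with DESeq2 1.42.0 as an alternative, in R 4.3.3. For reads, simulated differences of log2 size 1 and 2 were recovered in 11% and 76% of genes, over 5540 genes. Symbols and coordinates came from a RefSeq gene table (5558 of 5560 identifiers matched). Alternatives covered centring, background, read minimum, variance trend, replicate block and leaving out each culture.

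Named genes were UPF3, up to 12 per direction (called genes by size, then lowest p, cultures not overlapping), 8 fixed genes and up to 3 members of each list by lowest p; further genes are named as such. Members and lists were chosen with earlier results of these data known. In label left, same-numbered cultures deviated from their group means with correlations of 0.00136, 0.0184 and −0.0185, so the numbers do not pair them there. In reads the correlations were 0.887, 0.807 and 0.809, which do not separate pairing from a shift of replicate 1 shared by both genotypes. Blocked values stand beside read results whose call they change. This check of pairing in reads was added after the fits had been seen.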

Additional observations from a re-analysis of the deposited data

How the results depend on the processing

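The number of genes with more label left in the deletion, 18, was 2 with cultures centred and 8 by the share of reads with T>C. It was 0 with labelled RNA taken per library, with neither variance trend nor robust option, and with a trend on mean label left. It was 202 without replicate 1 of both genotypes, 53 with a term for replicate 1 (chosen after seeing the data) and 1 to 47 with each culture left out; other settings gave 15 to 26. Genes with less label left, 0, numbered 3 centred, 1 at 500 or more reads, 4 without replicate 1 of both, 2 with that term and 0 with each culture left out. With the replicate block 15 genes had more label left and 0 less, and with block and centring 1 and 3. The numbers do not pair the cultures in label left. The log2 difference of culture medians, 0.24, ranged from 0.17 to 0.39. Genes higher and lower in reads, 203 and 9, were 839 and 304 with the block, 928 and 130 without replicate 1 of both, 424 and 65 by DESeq2, 903 and 363 with the term for replicate 1, 261 and 14 with the DMSO library added, and 2 to 369 and 0 to 17 with each culture left out; UPF3 then ranged from −2.21 to −2.05. The cause of these changes was not tested.

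Centring, with or without the block, reversed RPL41B to −0.14, FBA1 to −0.13, RPL6B to −0.034, PDC1 to −0.13, ENO2 to −0.15, MET6 to −0.0022, HOR7 to −0.14, FUR1 to −0.067, URA2 to −0.065, TEF1 to −0.12, PMA1 to −0.12 and TEF2 to −0.14. Centring takes the same log2 amount at every level of label left, so such a sign does not by itself show faster loss of label. Label per library reversed MFA2 to −0.049, RPL41B to −0.41, VTC1 to −0.14 and ADH4 to 0.082. CTR2 became 0.24 without replicate 1 of both; with each culture left out it ranged from −0.23 to 0.35 and NDT80 from −0.31 to 0.23. Depth limits these calls: with 0 genes called among the 1116 of lowest depth and 3 cultures each, a missing call shows no equality.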
